A study of Rattus norvegicus with 6 samples.

Results

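The muscle-type miRNAs miR-1, miR-133 and miR-206 were followed in small RNA libraries of rat brain. The members were the 7 rows rno-miR-1-3p, rno-miR-133a-3p, rno-miR-133a-5p, rno-miR-133b-3p, rno-miR-133c, rno-miR-206-3p and rno-miR-206-5p, named without the species prefix below and chosen by name from the 775 rows of the deposited miRNA count table with their values in these libraries already known. The study compared 2 groups of 3 libraries each. All rats were male Sprague–Dawley rats bought at 7 weeks of age, and all underwent 2VO, in which both common carotid arteries are ligated to lower blood flow to the brain, as a model of vascular dementia. The surgery was done under pentobarbital sodium at 30 mg/kg. The 2VO group received 0.5% CMC-Na vehicle at 5 mL/kg for 4 weeks. The tilianin-treated 2VO group received 40 mg/kg of tilianin, a flavonoid glycoside, daily in the same vehicle and over the same period. The labels give the tissue as brain, and the study describes the sequenced samples as cortex. The sources do not say whether a library is 1 rat, so the p-values below measure only the spread between these libraries. The sham group is not analysed here.

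miR-1 and miR-133a are transcribed together, as are miR-206 and miR-133b, and both pairs are known mainly from heart and skeletal muscle, where they help to set muscle differentiation and contractile gene expression. A mature miRNA recognises its target mRNAs largely through its seed, bases 2 to 8 from the 5′ end. miR-1 and miR-206 share a seed and so many of their predicted targets, whereas the miR-133 guide strands carry another seed. In brain they are minor miRNAs, and miR-133b has been studied in midbrain dopaminergic neurons.

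The mature sequences show which of these rows can be told apart by sequencing. RefSeq (assembly GRCr8) held 6 of the 7 members and miR-1b, a close relative of miR-1-3p that has a row of its own. The first set carries the miR-1 seed, in capitals:
miR-1-3p: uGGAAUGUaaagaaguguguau
miR-1b: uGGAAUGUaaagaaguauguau
miR-206-3p: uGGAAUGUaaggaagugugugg
The second set is the miR-133 rows, again with bases 2 to 8 in capitals:
miR-133a-3p: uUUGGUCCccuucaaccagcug
miR-133b-3p: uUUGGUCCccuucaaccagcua
miR-133c: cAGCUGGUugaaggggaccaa
miR-133a-5p: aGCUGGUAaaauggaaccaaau

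Counting positions from the 5′ end, miR-1b differed from miR-1-3p at 1 base, G17A, and miR-206-3p differed from it at 3, A11G, A21G and U22G. miR-133b-3p differed from miR-133a-3p only in its last base, G22A, so a read that was trimmed by 1 base at its 3′ end fits both. The miR-133c row is of another kind. Its RefSeq sequence is the exact reverse complement of bases 2 to 22 of miR-133a-3p and lies at chr18:2157886-2157906 on the plus strand, opposite miR-133a-3p at chr18:2157886-2157907 on the minus strand. It therefore does not share the miR-133 seed. Among the 693 mature miRNAs of the RefSeq table, the seed GGAAUGU occurred in 3 (miR-1-3p, miR-1b and miR-206-3p) and the seed UUGGUCC in 2 (miR-133a-3p and miR-133b-3p).

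In GRCr8 miR-1-3p lies at chr18:2160339-2160360 on the minus strand, 2432 bases from miR-133a-3p, and the genes of both lie inside Mib1, which codes for an E3 ubiquitin ligase of Notch signalling. miR-206-3p at chr9:30590747-30590768 and miR-133b-3p at chr9:30594629-30594650 both lie on the plus strand, 3861 bases apart, inside the lncRNA gene LOC120094648. miR-1b lies at chr3:187864736-187864757 on the plus strand, in no other annotated gene. The authors' genome build and miRNA reference are not given in the sources used here, so these positions describe RefSeq and not the authors' counting.

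The authors deposited unnormalised read counts, and the libraries held 7175872 to 13198776 counts in total. Levels are given as CPM, counts scaled to a library size of 1000000 after adjusting library sizes with edgeR's TMM method. As a rough upper limit for a count of 0, 3 counts were taken, which correspond to 0.232 to 0.462 CPM depending on the library. This limit covers counting error only. Tilianin-treated replicate 2 stood apart across the 454 miRNAs with at least 10 counts in total, where its Spearman correlation with each other library was 0.936 to 0.957, against 0.983 to 0.992 among the rest. The fold changes of the tested members and of miR-1b are therefore also given without it. Other values are from all libraries unless stated.

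Of the 7 members, 5 had at least 10 counts in total and were tested, and the other 2 had at most 1 count each over all libraries. The row of miR-1-3p held 1 count in 2VO replicate 1 and 0 in the other 5 libraries. miR-1-5p, its passenger strand, held 0 in all 6. Apart from miR-206-3p, the reads with the miR-1 seed stood in the miR-1b row, which held 2320, 2044 and 2474 counts in 2VO replicates 1, 2 and 3 and 2993, 12785 and 1922 counts in tilianin-treated replicates 1, 2 and 3. With a mean of 543 CPM over the 6 libraries, miR-1b was the most abundant of these rows and rank 82 of the whole table. Since the sequences differ at 1 base, reads of miR-1 that were assigned to miR-1b and reads of miR-1b itself cannot be told apart in a count table.

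miR-1b was at 253, 158 and 320 CPM in 2VO replicates 1, 2 and 3. In tilianin-treated replicates 1, 2 and 3 it was at 325, 1969 and 235 CPM. The high mean of the treated group came from replicate 2, at 6.06 times the next highest library, while replicate 3 lay below 2 of the 2VO libraries. The mean ± SD (n = 3) was 244 ± 81.6 CPM with vehicle and 843 ± 976 CPM with tilianin, for a log2 fold change of 1.79 ± 0.81 (SE), and the treated mean without replicate 2 was 280 CPM.

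miR-133a-3p, the guide strand transcribed with miR-1, was at 71.7, 56.6 and 104 CPM in 2VO replicates 1, 2 and 3. In tilianin-treated replicates 1, 2 and 3 it was at 123, 358 and 94.7 CPM. Treated replicate 3 lay below 2VO replicate 3, so the groups overlapped, and treated replicate 2 was again the highest, at 2.91 times the next library. The mean ± SD (n = 3) was 77.6 ± 24.4 CPM with vehicle and 192 ± 145 CPM with tilianin, for a log2 fold change of 1.31 ± 0.53 (SE). Here and below a higher level in tissue can come from more cells of a type or from more RNA per cell, which bulk libraries cannot tell apart.

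miR-133b-3p, which differs from miR-133a-3p only in the last base, was at 15.4, 11.3 and 15.0 CPM in 2VO replicates 1, 2 and 3, the order used for each triplet below. The treated libraries stood at 19.0, 77.2 and 13.4 CPM. Apart from treated replicate 2, the treated and 2VO values were interleaved. The means of 13.9 ± 2.27 and 36.5 ± 35.3 CPM (± SD, n = 3) gave a log2 fold change of 1.39 ± 0.64 (SE).

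The row of miR-133c nearly repeated that of miR-133a-3p. It held 677, 750 and 828 counts in the 2VO libraries, where miR-133a-3p held 658, 733 and 807. In the treated libraries it held 1155, 2402 and 793 counts against 1134, 2325 and 776. The excess was 1.85% to 3.31% of the miR-133a-3p count, and its log2 fold change was the same to 2 decimals (1.31 ± 0.53, SE). One of the 11 miRNAs that the authors predicted, picked after its values were seen, held counts of 98.3% to 100.7% of miR-133a-3p in every library and differed between groups by 1.32 ± 0.53 (SE) on the log2 scale. Nothing in the table separates these 3 rows, so their values below are not independent of each other.

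Most rows on opposite strands did not mirror each other. Of 40 pairs of miRNAs that overlap by at least 16 bases on opposite strands in GRCr8 and have at least 100 counts in the higher row, 2 had a lower row at 90% or more of the higher, namely miR-133a-3p with miR-133c and miR-218a-5p with miR-218b, and 32 had a lower row under 1% of the higher. Below the 90% mark, miR-29b-3p with miR-3587 stood at 86.5% and miR-299a-5p with miR-299b-3p at 79.0%. The other member with a partner on the opposite strand was miR-1-3p. Opposite it lies miR-3571, which held 675 counts over the 6 libraries against its 1. miR-3571, looked at after its values were seen, stood at 10.6, 8.03 and 11.3 CPM with vehicle and at 14.7, 22.8 and 12.7 CPM with tilianin. Every treated library lay above every 2VO library, as for 5.51% of all tested miRNAs, at a log2 fold change of 0.75 ± 0.29 (SE) and an adjusted p of 0.637 from edgeR's quasi-likelihood test. How the authors' counting handled strand is not given in the sources used here, and whether the strands were kept apart was not tested.

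**Figure D1:**
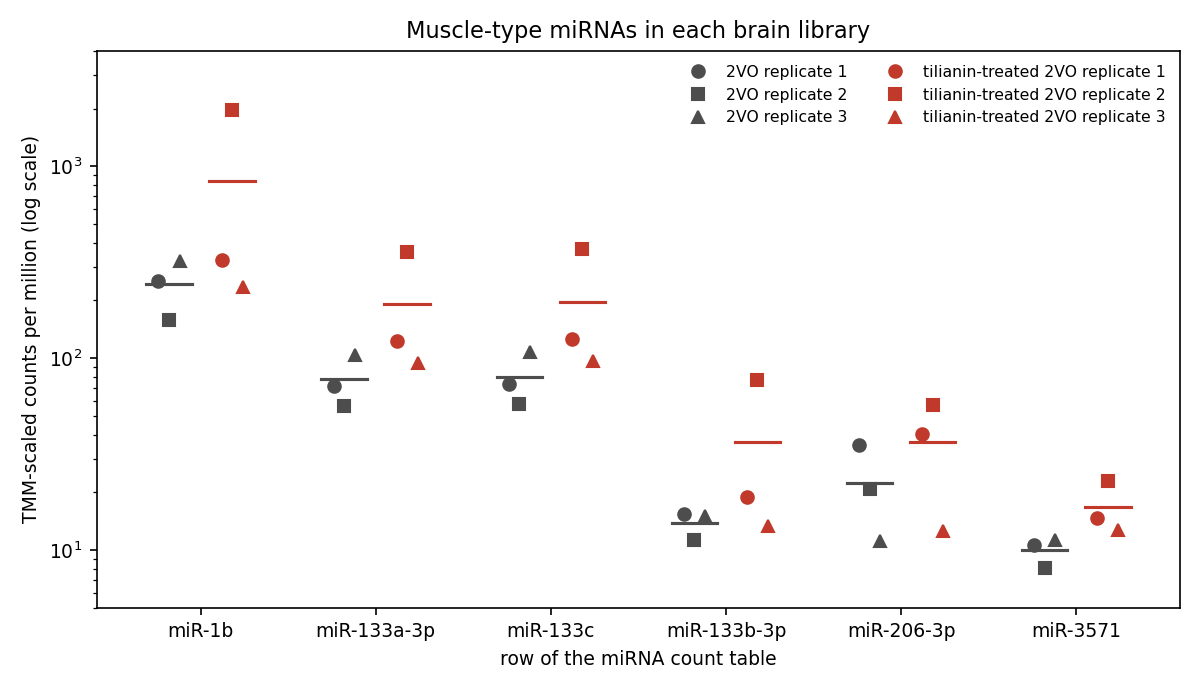
Levels of 6 rows of the miRNA table in each library, in TMM-scaled CPM on a log axis, with 2VO libraries in grey, tilianin-treated libraries in red, a symbol for each replicate number and a line at the group mean (n = 3). Treated replicate 2 (red square) was the highest library in all 6 rows, from 22.8 CPM for miR-3571 to 1969 CPM for miR-1b, and miR-206-3p was lowest in both libraries numbered 3.

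The passenger strand miR-133a-5p was rare. It held 4, 1 and 7 counts in the 2VO libraries and 5, 14 and 3 in the treated libraries, 0.136% to 0.867% of the miR-133a-3p counts. Its log2 fold change of 1.14 had an SE of 0.97, which is close to the size of the change itself. miR-133b-5p, the passenger strand of miR-133b, had 0 counts in all 6 libraries.

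miR-206-3p, the skeletal muscle form that shares its seed with miR-1, followed another order. It was at 35.3, 20.7 and 11.1 CPM in 2VO replicates 1, 2 and 3. In tilianin-treated replicates 1, 2 and 3 it was at 40.3, 57.0 and 12.6 CPM. The groups overlapped over most of their range. The lowest values were those of both libraries numbered 3 in the sample titles, an order that 10.4% of all tested miRNAs showed. The means were 22.4 ± 12.2 and 36.6 ± 22.4 CPM (± SD, n = 3), and the log2 fold change was 0.71 ± 0.60 (SE). miR-206-5p held 1 count in treated replicate 1 and 0 elsewhere.

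By mean level over the 6 libraries the order was miR-1b (543 CPM), miR-133c (138 CPM), miR-133a-3p (135 CPM), miR-206-3p (29.5 CPM), miR-133b-3p (25.2 CPM) and miR-133a-5p (0.747 CPM). miR-206-3p and miR-133b-3p were not separated beyond their spread, since miR-206-3p held fewer counts in 2VO replicate 3 (86 against 116) and in treated replicates 2 and 3 (370 against 501 and 103 against 110), and more in the other 3 libraries.

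The study screened miRNAs by an unadjusted p-value below 0.05 together with a log2 fold change beyond 1 in either direction. By that screen 2 members were called upregulated in the tilianin-treated 2VO group, miR-133a-3p and miR-133c, where 4.63% of all tested miRNAs were. 0 members were called downregulated, where 1.1% of all tested miRNAs were, and 5.73% were called in either direction. The members were chosen with this comparison known, so the counts describe them and support nothing. Since miR-133c repeats miR-133a-3p, both calls rest on the same values and count as 1 signal. The median log2 fold change was 1.31 over the 5 tested members, 1.22 over the 4 left without miR-133c and -0.03 over all 454 tested miRNAs. The miR-133b-3p row, which is still counted among the 4, may also share reads with miR-133a-3p. The groups overlapped for all 5 tested members, whereas they did not for 9.69% of all tested miRNAs. miR-133a-3p and miR-133c both had an adjusted p of 0.637 over all miRNAs by edgeR's quasi-likelihood test, so neither passed an adjusted threshold of 0.05. With that adjustment 0 miRNAs of the table passed it, against 33 with an unadjusted p under 0.05. DESeq2's Wald test gave both rows an adjusted p of 0.309, and with it 3 miRNAs of the table passed the adjusted threshold, 0 of them members. With edgeR, 1 miRNA passed it without treated replicate 1 and 4 without treated replicate 2, again 0 of them members.

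The miR-133a-3p and miR-133b-3p rows, which share a seed, summed to 87.1, 67.8 and 119 CPM with vehicle and to 142, 435 and 108 CPM with tilianin, and the groups overlapped. The log2 fold change of this sum was 1.32. It was 1.31 with the miR-133c row added, which had to come out alike because that row repeats miR-133a-3p.

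The size of the fold changes and the calls depended on treated replicate 2. Without it the log2 fold change was 0.52 for miR-133a-3p, 0.51 for miR-133c, 0.25 for miR-133b-3p, 0.13 for miR-133a-5p, 0.25 for miR-206-3p and 0.23 for miR-1b, and 0 members passed the criterion, where 2.02% of all miRNAs were called upregulated. The means of treated replicates 1 and 3 still lay above the 2VO means for 4 of the 5 tested members, for example at 109 against 77.6 CPM for miR-133a-3p, and below it for miR-133a-5p, at 0.455 against 0.473 CPM. Without 2VO replicate 1, 2 or 3 the log2 fold change of miR-133a-3p was 1.25, 1.18 and 1.57. 0 members passed in these fits, in which the upregulated share of all miRNAs also fell, to 1.78%, 1.59% and 2.03%. Without treated replicate 1 or treated replicate 3, 3 members passed, with miR-133b-3p as the third, where 6.47% and 5.58% of all miRNAs were called upregulated. All 5 tested members had their highest level in treated replicate 2, as did 33.0% of all tested miRNAs.

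**Figure D2:**
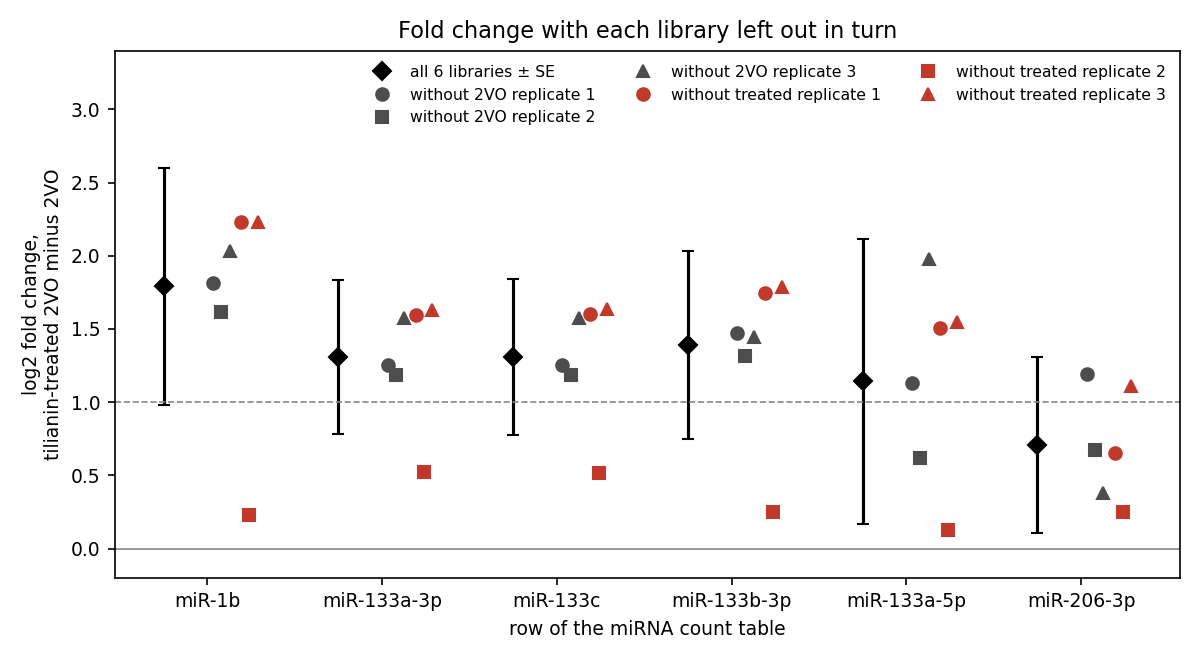
Log2 fold change of the tilianin-treated against the 2VO group (above 0 is higher with tilianin) for miR-1b and the 5 tested members, from edgeR with all 6 libraries (black, bars are standard errors) and with each library left out in turn (grey and red symbols, no error shown). The dashed line marks a log2 fold change of 1, and the red squares, without treated replicate 2, are the lowest value in each row, between 0.13 and 0.52.

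Ratios between rows within a library do not depend on how libraries are scaled. The ratio of miR-133b-3p to miR-133a-3p was 0.214, 0.199 and 0.144 in the 2VO libraries and 0.154, 0.215 and 0.142 in the treated libraries. These ranges nearly coincide, so the miR-133b-3p row kept about the same proportion to miR-133a-3p in both groups, also in treated replicate 2. Trimmed reads that fit both rows may enter this ratio, and their part in it was not tested. miR-1b did not keep its proportion to miR-133a-3p. Its ratio to miR-133a-3p was 3.53, 2.79 and 3.07 in the 2VO libraries and 2.64, 5.50 and 2.48 in the treated libraries, so that the 2 treated libraries other than replicate 2 lay below all 2VO libraries and replicate 2 above them. The ratio of miR-206-3p to miR-133b-3p, its neighbour on chromosome 9, was 2.30, 1.84 and 0.741 in the 2VO libraries and 2.12, 0.739 and 0.936 in the treated libraries. Thus treated replicate 2, where miR-133b-3p was 5.14 times its median in the other 5 libraries and miR-1b 7.79 times, showed a smaller excess of miR-206-3p, at 2.75 times.

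**Figure D3:**
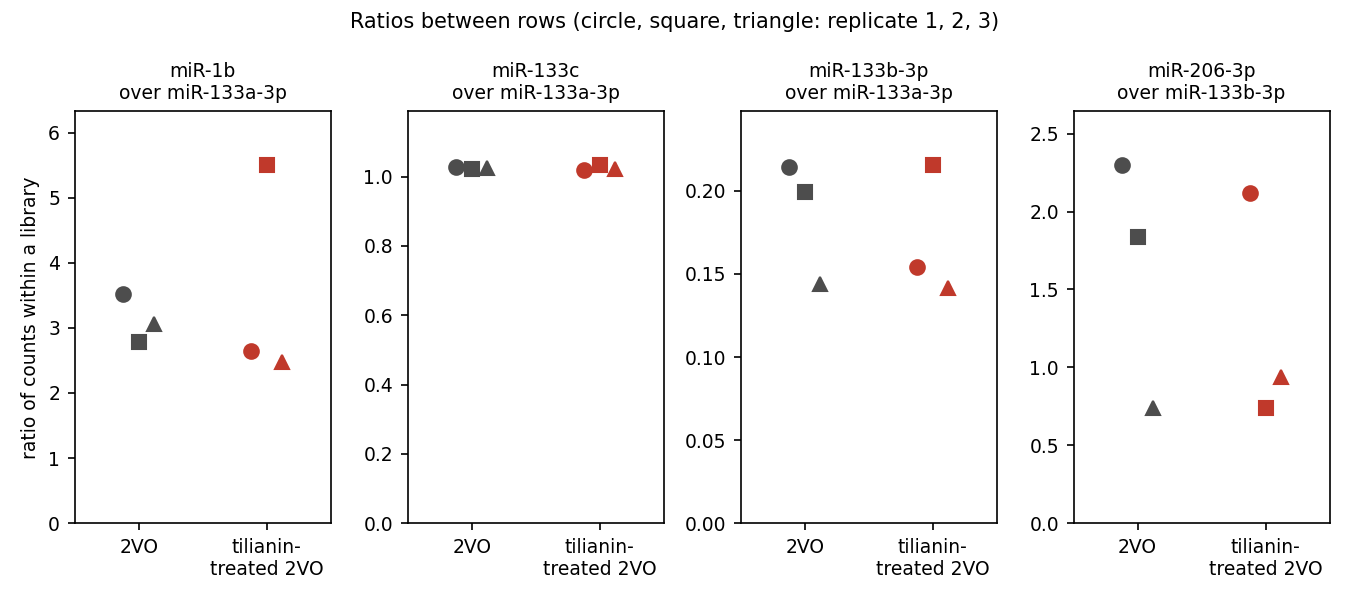
Ratios of counts between 2 rows within each library, one panel per pair with its own axis from 0, with the 2VO libraries in grey and the tilianin-treated libraries in red. miR-133c stayed between 1.02 and 1.03 times miR-133a-3p, whereas miR-1b ranged from 2.48 to 5.50 times miR-133a-3p and was highest in treated replicate 2 (red square).

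The level of miR-133a-3p across the libraries was compared with that of 349 miRNAs with at least 100 counts, leaving out the members. The measure was Pearson's r of log2(CPM + 1) over 6 libraries. These correlations share the libraries' depth and composition and are given as a description. Apart from the predicted copy, which was the most alike, the closest were miR-1b (r = 0.977), miR-339-3p (0.976), miR-3571 (0.972) and miR-223-3p, a miRNA of myeloid cells (0.972). Of these 5, 4 remained among the 5 most alike without treated replicate 2, and miR-223-3p did not. miR-133a-3p and miR-206-3p correlated at 0.549, and at -0.0307 without treated replicate 2. miR-1b and miR-133a-3p correlated at 0.897 without that library.

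Other miRNAs known from striated muscle differed in direction. miR-499-5p, which lies in a myosin heavy chain gene expressed in heart and slow muscle, was at 182, 193 and 184 CPM with vehicle and at 117, 118 and 178 CPM with tilianin. All treated libraries lay below all 2VO libraries, where the groups did not overlap in either direction for 9.69% of all tested miRNAs. Treated replicate 3, at 178 CPM, lay near the lowest 2VO library, at 182 CPM. The log2 fold change of miR-499-5p was -0.44 ± 0.22 (SE, adjusted p = 0.724 by edgeR's quasi-likelihood test). The 4 rows of miR-208a and miR-208b, cardiac miRNAs of the myosin heavy chain genes, held 1 count in all. Of the 6 rows of miR-208 and miR-499, 2 were tested and 0 passed the criterion, with a median log2 fold change of -0.34 and a summed level of 183 to 194 CPM with vehicle and 118 to 179 CPM with tilianin. miR-486, which is abundant in striated muscle as well as in erythroid cells and was listed with the latter, was at 152, 156 and 198 CPM with vehicle and at 406, 876 and 338 CPM with tilianin. Every treated library lay above every 2VO library for miR-486, as for 5.51% of all tested miRNAs. miR-486 passed the criterion as upregulated at a log2 fold change of 1.68 ± 0.39 (SE, adjusted p = 0.591 by edgeR's quasi-likelihood test).

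The markers of other cell types were at the following levels beside these values, and their part in the levels of the members was not tested. Of 4 smooth muscle and mural miRNAs (miR-143 and miR-145), 3 were tested and 0 passed, and their summed level was 1.53 to 3.11 CPM with vehicle and 2.17 to 3.30 CPM with tilianin. Of 8 Hox cluster miRNAs, which mark caudal tissue such as hindbrain, spinal cord and trunk, 5 were tested and 4 passed as upregulated, with a median log2 fold change of 5.49. Their summed level was 90.1 to 151 CPM with vehicle, 322 and 490 CPM in treated replicates 1 and 3 and 21745 CPM in treated replicate 2, the library in which the members were highest. Of 4 erythroid miRNAs, 2 were tested and 1 passed as upregulated, with summed levels of 155 to 199 CPM with vehicle and 338 to 881 CPM with tilianin, nearly all of it miR-486, which is not particular to erythroid cells. The erythroid miR-451-5p held 0 to 4 counts per library, and miR-144-3p had a log2 fold change of 0.60 with an SE of 1.17. Of 4 mesenchymal miRNAs, 1 was tested and passed as upregulated (miR-214-3p), with summed levels of 0.849 to 1.81 and 3.15 to 4.77 CPM. Of 7 epithelial miRNAs 1 was tested and 0 passed, with 28.1 to 43.9 and 39.0 to 50.8 CPM, nearly all of it miR-203a-3p. The 7 neuronal miRNAs were all tested and 0 passed, with a median log2 fold change of -0.30. They summed to 135776 to 168537 CPM with vehicle, to 150501 and 165206 CPM in treated replicates 1 and 3 and to 89811 CPM in treated replicate 2, so that every library carried the miRNAs of brain at a high level and treated replicate 2 the least.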

How the data were processed

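Small RNA libraries (TruSeq Small RNA kit, total RNA of brain) of 3 2VO and 3 tilianin-treated 2VO samples were used. The authors deposited raw counts of reads per mature miRNA, and the submitters' processing notes name FastQC 0.11.2, Trimmomatic 0.36, cutadapt 1.14 and DESeq2 1.12.4. The aligner, miRNA reference, genome build and rules for strand and for reads that fit several miRNAs are not given in the sources used here, and these rules decide how near-identical rows divide or repeat reads. Columns were mapped to samples by the library codes in the labels. Replicate numbers are those of the sample titles, and the library code of 2VO replicate 3 carries a different number.

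After removing miRNAs with fewer than 10 counts over all libraries, 454 were fitted with edgeR 4.0.16 (TMM, quasi-likelihood test, group as the single term, R 4.3.3, limma 3.58.1), with Benjamini-Hochberg adjustment over all of them. The study's criterion (unadjusted p below 0.05, absolute log2 fold change above 1) was kept. Standard errors (SE) are approximate, computed as the size of the fold change over the root of F. Alternatives were DESeq2 1.42.0 (size factors, Wald test), library totals, filterByExpr, no filter, a prior count of 2, the replicate number as a block, each library left out and the miR-133 rows summed. The fit was tested on simulated counts in which no library stood apart, unlike treated replicate 2 in these data. Ratios, likeness and sequences (RefSeq, GRCr8) were handled in Python 3.11.15. Named miRNAs were the members, their other arms and close relatives, the marker lists and the 5 non-member miRNAs most like miR-133a-3p. miR-3571, miR-218, miR-29b-3p, miR-3587, miR-299a-5p, miR-299b-3p and the predicted copy were named after their values were seen. The members and lists were chosen with earlier results of these data known.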

Additional observations from a re-analysis of the deposited data

How the results depend on the processing

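With the replicate number as a block, 0 members passed the criterion instead of 2, where the upregulated share of all miRNAs fell from 4.63% to 1.98%, and the log2 fold change of the summed miR-133a-3p, miR-133b-3p and miR-133c rows was 1.06 and lost the call. The correlation of same-numbered libraries, each taken relative to its group mean, was -0.121, 0.00917 and 0.297 for numbers 1, 2 and 3. Whether the numbers mark paired libraries was not tested. With the miR-133 rows summed to 1, 1 member passed, since the alternative itself merges the called rows. With each library left out in turn, 0 to 3 members passed as upregulated and the log2 fold change of the summed rows lay between 0.50 and 1.64. It lost the call without any of the 2VO libraries and without treated replicate 2, the lowest value. No direction of a tested member, of miR-1b or of the sum reversed in any alternative. Across miR-1b and the 5 tested members, 35 of 41 other values kept their side of the criterion, 4 gained the call (miR-133b-3p and miR-1b with DESeq2's Wald test and without a filter) and 2 lost it with the block. Of 36 values with a library left out, 24 kept their side, 4 gained the call and 8 lost it. miR-133a-5p could not be fitted under filterByExpr, which removed it. The non-member miRNAs most like miR-133a-3p were the same 5 of 5 with a pseudocount of 0.5 CPM. Where no cause is given, the cause was not tested. Counting limits mainly miR-133a-5p, miR-1-3p and miR-206-5p.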

Other observations

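miR-206-3p was also compared with the 349 non-member miRNAs by Pearson's r over the 6 libraries, a comparison added after its values were seen. The most alike was let-7a-5p (r = 0.970), at 4352, 4070 and 3628 CPM with vehicle and 4196, 4525 and 3717 CPM with tilianin, again lowest in both libraries numbered 3. It was followed by miR-320-3p (0.931), miR-381-3p (0.904), miR-16-5p (0.904) and miR-1298 (0.888). Without treated replicate 2, let-7a-5p remained among the 5 most alike (0.953).

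In several opposite-strand pairs of GRCr8, the row that held the reads was not the one usually described as the abundant miRNA of its locus. miR-3065-5p held 206890 counts over the 6 libraries against 1540 for miR-338-3p, miR-219b held 33793 against 18 for miR-219a-2-3p, and miR-3557-5p held 20181 against 660 for miR-378a-3p. miR-3571 against miR-1-3p is of the same kind, with 675 counts against 1, although there most counts of the miR-1 seed stood in the miR-1b row.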
